A study of Mus musculus with 32 samples.

Results

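Small nucleolar RNAs (snoRNAs) were measured in sorted fetal mouse germ cells on Mouse Gene 1.0 ST arrays. A probe (a set of oligonucleotides read as one value) was counted as a member when the platform annotation gave it exactly 1 gene symbol and that symbol began with Snord (box C/D class), Snora (box H/ACA class) or Scarna (small Cajal body RNAs, scaRNAs). The rule found 60 probes of the 35556 on the array, and these cover 54 of the 19938 genes named by single-gene probes: 31 box C/D, 20 box H/ACA and 3 scaRNA genes. The class itself was chosen by an earlier result of these arrays, in which snoRNA signals were lower in G2R than in G1R prospermatogonia of the oil groups, so that comparison is given below as a description with no test. A further 41 snoRNA probes name several genes and were left out, among them 24 probes of the imprinted Snord116 cluster, and U3 was measured only under the symbol Rnu3a, which the rule does not take.

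SnoRNAs are short noncoding RNAs of the nucleolus that guide chemical modification of ribosomal RNA. Box C/D RNAs bind fibrillarin, Nop56, Nop58 and Snu13 and direct 2′-O-methylation, while box H/ACA RNAs bind dyskerin (Dkc1), Nop10, Nhp2 and Gar1 and direct pseudouridylation, and scaRNAs do the same for spliceosomal RNAs in Cajal bodies. A few, such as U3, U8 (Snord118), U14 (Snord14 family), U22 (Snord22) and U17 (Snora73 family), act in cleavage of the ribosomal precursor instead, and most mammalian snoRNAs are cut from introns of host genes.

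The 32 arrays fell into 11 groups of 3, except that the G1R DEHP females had 2. Germ cells carried the OG2 transgene, in which the Oct4 promoter drives EGFP, and were sorted by that signal at 17.5 dpc. G0 dams were gavaged daily from 12.5 dpc with oil vehicle or with 1 of 3 endocrine disruptors (EDs): 0.2 mg/kg/day bisphenol A (BPA), 750 mg/kg/day bis(2-ethylhexyl) phthalate (DEHP) or 100 mg/kg/day vinclozolin (VZ). The G1R groups were oocytes (F) and prospermatogonia (M) of fetuses exposed in utero to oil, BPA, DEHP or VZ, from the cross FVB × OG2. The G2R groups were prospermatogonia from the following generation (oil, DEHP and VZ only), from the reverse cross OG2 × FVB and with run names of another series, so generation, cross and array run cannot be told apart. The study's sample run names number the G1R arrays group after group (oil first, then BPA, then DEHP, VZ last). Whether that is an order of hybridization was not stated, and run number and ED cannot be told apart. Nothing in the labels says that arrays of a group came from separate litters, so p-values measure only the spread between these samples, which may be technical.

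The labelled cell types were checked against markers. Dazl and Ddx4, general germ cell genes, had group means of 12.36 to 12.73 and 11.59 to 11.78 (log2 signal) in all 11 groups. Figla, Nobox, Lhx8 and Sycp3 were high in the 4 oocyte groups, and Dnmt3l and Piwil4 were high in the 7 prospermatogonia groups (Dnmt3l 11.57 to 11.81, against 5.87 to 6.12 in oocytes). Nanos2 was at 6.10 to 6.51 in every group, below the background level defined below, Nanos3 (7.05 to 7.53) did not separate the sexes, and Pou5f1, the gene whose promoter drives the sort marker, was at 7.65 to 7.95 in oocytes against 10.21 to 11.11 in males. The summed signal of 3 Sertoli cell markers was 8.55 to 8.90 in oocyte arrays and 9.23 to 11.03 in male arrays (log2). That of 4 Leydig cell markers was 8.07 to 8.43 in oocyte arrays and 8.78 to 12.26 in male arrays, with arrays over 11 in the G1R BPA, G2R oil and G2R DEHP males. Of these 4, Star had group means of 6.66 in oil oocytes and 6.68 in G1R oil males, and Hsd3b1 of 5.71 and 5.35. Granulosa cell markers summed to 9.14 to 9.41 in oocyte arrays and 9.59 to 9.94 in male arrays. Interstitial cell markers summed to 9.04 to 9.41 and 9.93 to 11.62, and blood cell markers to 6.47 to 6.73 and 6.49 to 6.93. The part of these cells in the results below was not tested, and in sorted cells measured in bulk fewer cells of a type and less RNA per cell cannot be told apart.

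The annotated RNAs were 45 to 148 nt long in the box C/D class, 61 to 205 nt in the box H/ACA class and 62 to 275 nt among the scaRNAs (RefSeq, GRCm38.p6). Of the 60 probes, 58 lie within the span of another annotated gene, called the host here, with strand not checked. The exception is Snord118, which has its own transcription unit and 2 probes. A probe inside an intron also reads unspliced host RNA that reaches the array, so mature snoRNA and precursor cannot be told apart. There were 6 genes with 2 probes each, whose values were identical for Scarna17, Snora30 and Snord118 and differed by at most 0.18 log2 units for Snora21, Snora3 and Snord58b, and the first probe was used. All 20 box H/ACA genes, all 3 scaRNA genes and 26 of 31 box C/D genes had a mean signal above 6.89, the level under which 95% of olfactory receptor probes lay. The 5 below it, called dim here, were Snord61, Snord73a, Snord38a, Snord58b and Snord96a.

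Transcription starts of host genes that carry 2 or more measured members are shown because snoRNA host genes are known for a pyrimidine tract at the start, a feature shared by ribosomal protein genes. Each line gives 20 bases before and 10 bases from the annotated start on the transcribed strand, 5′ to 3′, with the longest unbroken run of C and T letters within 10 bases either side of the start in capitals (RefSeq, GRCm38.p6).
Snhg3 (Snora73a, Snora73b), chr4:132353677-132353706, minus strand: aggcatagtcgaccacgcctgaCTTCCggg
Snhg12 (Snora16a, Snora44), chr4:132308658-132308687, plus strand: gtgcaggccgttctcagTCCTTTCTCgctt
2410006H16Rik (Snord49a, Snord49b), chr11:62602857-62602886, plus strand: ggcgctcacgcgccgTCTTTCTCTgcggcc
Ncl (Snord82, Snora75), chr1:86359446-86359475, minus strand: cggttggctccggggacggacgcgagCTCT
Rack1 (Snord95, Snord96a), chr11:48800340-48800369, plus strand: tccggcggaggccgCTCTTTCTTTTTCTCC
Rpl13a (Snord33, Snord35a), chr7:45128736-45128765, minus strand: gataagaaaccctgcgacaagaCCTCCTCC
Rps3 (Snord15a, Snord15b), chr7:99483700-99483729, minus strand: gaacacttgcaagggtcgccgcgCTgcgcg
Rps3a1 (Snord73a, Snord73b), chr3:86142659-86142688, minus strand: gattcttaaagCCggaagggcgaaagagca
A run of 8 or more C or T letters in that 20-base window was found in 8 of the 33 host genes with an entry (24.2%), and in 8.71% of all 27025 genes with one. A match describes these letters only, and a start annotated a few bases away would change it.

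For an overview by class, each gene's log2 signal was set against its own mean over the 32 arrays and the class median was taken on each array. The box C/D median was highest in G1R oil prospermatogonia, at 0.28 ± 0.08 (SD, n = 3), with arrays from 0.20 to 0.37. It was −0.02 ± 0.02 (SD, n = 3) in oil oocytes and −0.23 to −0.27 in the 3 ED oocyte groups. The lowest box H/ACA group was G1R VZ prospermatogonia, at −0.50 ± 0.19 (SD, n = 3), and its replicates 1 and 3 were the lowest of the 32 arrays, while replicate 2, at −0.29, lay just above replicate 3 of the VZ oocytes. In G1R VZ males the box H/ACA median was below the box C/D median on each of the 3 arrays, by 0.23 to 0.56 log2 units, and in G1R BPA males it was also below on all 3 arrays, by 0.09 to 0.24. In G1R oil males the classes differed by at most 0.09.

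Arrays of 1 group could differ as much as groups did. In G1R DEHP males the box C/D median ran from −0.16 to 0.47 and the box H/ACA median from −0.25 to 0.52, with replicate 2 highest and replicate 3 lowest in both classes. In G2R VZ males replicate 1 was low in both classes (−0.10 and −0.14) and replicates 2 and 3 were high (0.30 to 0.39 for box C/D, 0.40 to 0.73 for box H/ACA). The median over all probes stayed between −0.07 and 0.08 on every array. The 12 probes of other short structured RNAs, such as U6, U7, 7SK and the Y RNAs, had group means of −0.11 to −0.24 in oocytes, −0.10 in G1R VZ males and 0.00 to 0.30 in the other male groups.

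**Figure D1:**
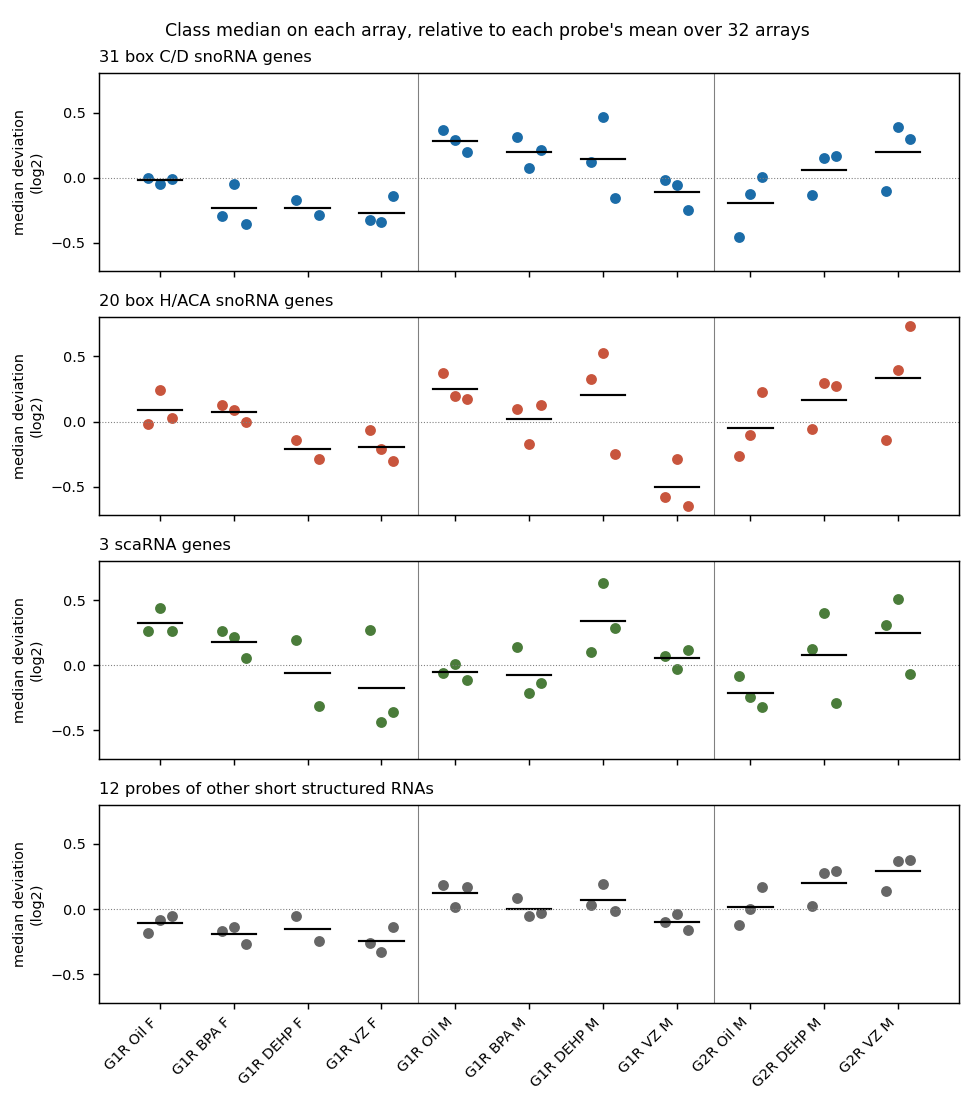
Class median on each array (y axis, log2 deviation from each probe's mean over 32 arrays) by group (x axis); points are arrays, bars group means, vertical lines separate G1R oocytes, G1R prospermatogonia and G2R prospermatogonia. Box C/D is highest in G1R oil males (mean 0.28), box H/ACA is lowest in G1R VZ males (mean −0.50), and the spread within G1R DEHP males and G2R VZ males is wide.

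The question of sex was asked 4 times, in oocytes against prospermatogonia of the same treatment, and these 4 comparisons share no arrays. The male arm of the oil comparison consists of the G1R oil males, the higher group where the class was chosen, so its lower calls in oocytes are not independent of that choice. The BPA, DEHP and VZ comparisons use none of those arrays. Box C/D RNAs were mostly lower in oocytes, while box H/ACA RNAs went both ways. In the oil groups 13 of 31 box C/D genes (41.9%) were called lower in oocytes and 4 (12.9%) higher, against 25.6% of all 35556 probes called lower and 28.7% called higher (limma, adjusted p under 0.05 over all probes). Among the 20 box H/ACA genes, 4 were called lower and 2 higher, and among the 3 scaRNA genes 1 lower and 2 higher. The median difference (oocyte minus prospermatogonia, log2) was −0.41 for box C/D, −0.08 for box H/ACA and 0.05 over all probes.

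In the BPA groups 17 box C/D genes (54.8%) were called lower and 3 higher, against 25.1% of all probes lower and 30.6% higher. In the DEHP groups 10 (32.3%) were called lower and 3 higher, against 23.6% and 28.5%. In the VZ groups 8 (25.8%) were called lower and 4 higher, a share of lower calls close to the 24.5% of all probes, with 31.0% of all probes higher. The box C/D median difference was −0.60, −0.41 and −0.14 in these comparisons. The box H/ACA class had 3 lower and 5 higher calls in BPA, 6 and 1 in DEHP, and 0 and 4 in VZ. Its median difference was 0.02, −0.31 and 0.26, so its sign turned between treatments. The sex by ED terms test whether the sex difference itself changes with an ED. They called 0 members and 0.0% of all probes for BPA, for DEHP and for VZ (limma). In the DEHP comparison the number of members called fell from 21 to 10 without replicate 2 of the DEHP oocytes, which leaves 1 oocyte array, and the share of all probes from 52.1% to 43.2%.

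Scarna17, a Cajal body RNA annotated within a long noncoding RNA gene, had the smallest adjusted p in every sex comparison. Its log2 signal was 11.07, 11.40 and 11.18 in oil oocytes and 12.43, 12.23 and 12.37 in oil prospermatogonia. No oocyte array of any treatment (10.93 to 11.43) reached any male array (12.01 to 12.67). The difference was −1.13 ± 0.14 (SE; adjusted p = 7.54e-08) among oil groups, −1.02 under BPA, −1.28 under DEHP and −0.94 under VZ. The other scaRNAs went the opposite way. Scarna8 was at 8.15 to 8.32 in oil oocytes and 7.78 to 7.90 in oil males (0.37 ± 0.12, SE; adjusted p = 0.0099), and Scarna13 was at 10.36 to 10.78 and 9.40 to 9.78 (0.94 ± 0.35, SE; adjusted p = 0.024).

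A set of 8 box C/D genes was called lower in oocytes in all 4 comparisons: Snord47, Snord14e, Snord104, Snord16a, Snord85, Snord35b, Snord33 and Snord35a. Together with Scarna17 they make 9 of 54 members, while 19.5% of all probes were called lower in all 4. Snord47, which is encoded with several other box C/D RNAs in the growth arrest gene Gas5, had signals of 10.03, 9.73 and 9.71 in oil oocytes and 10.55, 10.59 and 10.65 in oil prospermatogonia. Its difference ran from −1.07 in DEHP to −0.67 in VZ. Snord14e, a U14 gene within Hspa8, was at 9.21, 9.20 and 9.14 in oil oocytes and 10.04, 9.98 and 9.52 in oil males, a difference of −0.66 ± 0.19 (SE; adjusted p = 0.0038), and reached −1.20 in DEHP. Snord33 and Snord35a, both in introns of Rpl13a, fell together (−0.51 and −0.47 in oil, −0.74 and −0.80 in DEHP). For Snord35a the arrays were tight, at 11.15, 11.20 and 11.21 in oil oocytes and 11.63, 11.64 and 11.70 in oil males. Of the box C/D genes that passed the test in oil, the lowest were Snord85 at −0.87, Snord15b at −0.86, Snord47, Snord104 and Snord52 at −0.77 and Snord42a at −0.68, and the oocyte and male arrays of each did not overlap.

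Snord61 and Snora70, both X-linked, were called higher in oocytes in all 4 comparisons (2 of 54 members, with 20.6% of all probes higher in all 4). Snora69, within Rpl39 and also X-linked, was called in none of them. Its difference was 0.996 under VZ and lay between −0.001 and 0.117 for the remaining treatments. Snord61, in an intron of Rbmx, had signals of 6.36, 5.70 and 5.99 in oil oocytes and 4.51, 4.66 and 4.89 in oil prospermatogonia, all of them in the dim range, and a difference of 1.33 ± 0.25 (SE; adjusted p = 4.69e-05). Its difference was 0.73 in BPA, 1.13 in DEHP and 0.69 in VZ. Snora70, in Rpl10, was at 7.93, 8.10 and 8.03 in oil oocytes and 7.68, 7.32 and 7.77 in oil males (0.43 ± 0.18, SE; adjusted p = 0.041). The other box C/D genes called higher in oocytes were mostly dim ones too. In oil these were Snord73a (0.56) and Snord58b (0.85), with Snord42b (0.34) as the exception, in BPA they were Snord38a (0.53, dim) and Snord37 (0.55, not dim), in DEHP Snord73a (0.48) and Snord58b (0.89), and in VZ Snord73a (0.76), Snord58b (0.81) and Snord38a (0.93).

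In the box H/ACA class the 2 U17 RNAs, Snora73a and Snora73b of Snhg3, had the largest decreases in oocytes. Snora73a was at 9.52, 10.06 and 9.80 in oil oocytes and 11.41, 11.11 and 11.03 in oil prospermatogonia. Snora73b was at 9.15, 9.81 and 9.47 in oil oocytes and 11.17, 10.99 and 10.71 in oil males. The differences were −1.39 ± 0.37 (SE; adjusted p = 0.0024) and −1.48 ± 0.35 (SE; adjusted p = 0.0007). Both were called in oil, BPA and DEHP and missed the test in VZ (−0.64 and −0.68), where the male arrays were lower. The genes are neighbouring paralogs of the same length, and cross-hybridization between their probes was not tested. Snora74a (−0.84 in oil) and Snora16a (−0.76) were also called lower, and in DEHP so were Snora44 (−1.04) and Snora41 (−0.70). Snora21, in Rpl23, was called higher in oocytes in oil (8.43 to 8.55 against 7.83 to 8.03), BPA and VZ. Snora30 and Snora2b were called higher in BPA (0.56 and 0.60) and VZ (0.61 and 0.65), and Snora52 in BPA (0.27).

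**Figure D2:**
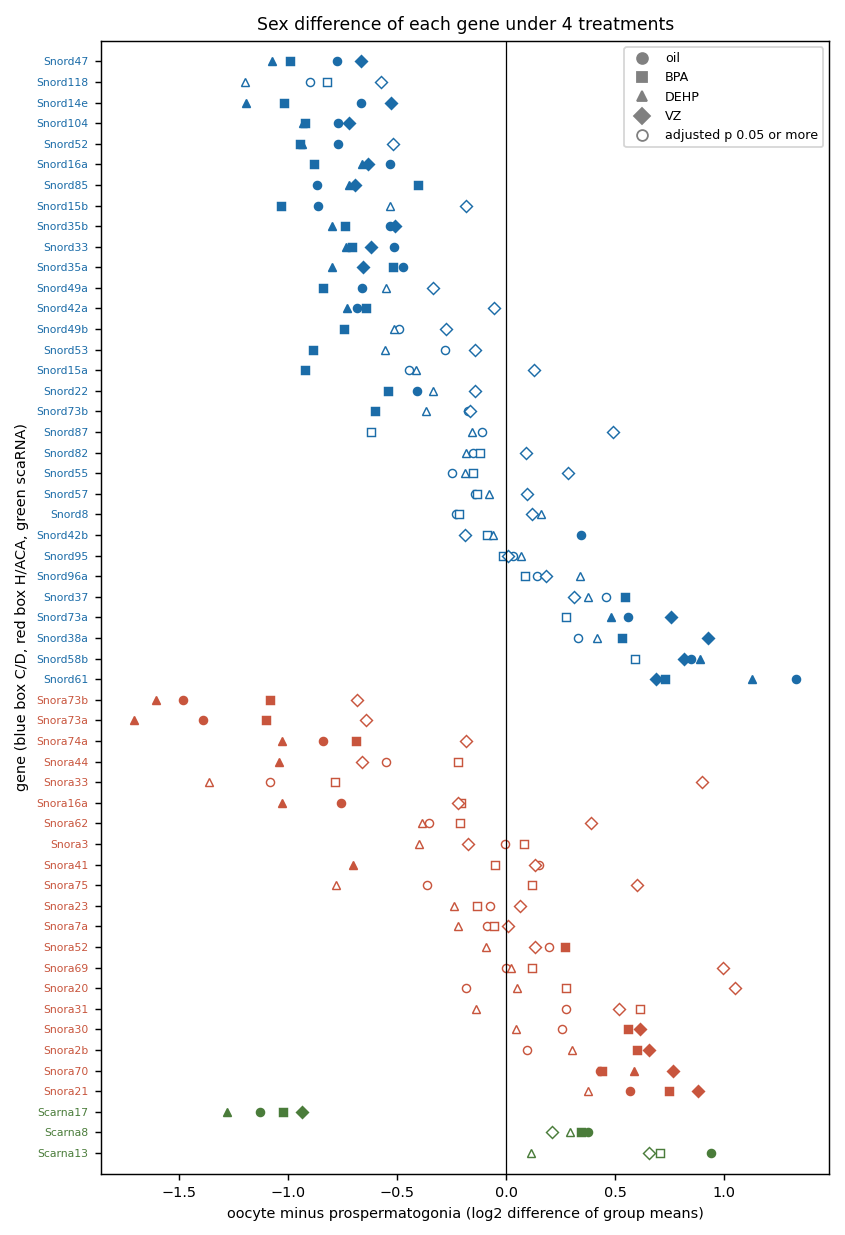
Oocyte minus prospermatogonia log2 difference (x axis) of each of the 54 genes (y axis) under 4 treatments; symbol shapes are treatments, filled symbols passed adjusted p under 0.05, colours are classes. Most box C/D points lie left of 0, box H/ACA points spread to both sides (Snora73a and Snora73b lowest), and Scarna17 lies near −1 in every comparison.

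The sign of the sex difference was the same in all 4 comparisons for 35 of the 54 genes, 23 of them lower and 12 higher in oocytes. By class these were 23 of 31 box C/D, 9 of 20 box H/ACA and 3 of 3 scaRNA genes. In none of the 4 comparisons were 17 genes called, among them Snord118, the U8 RNA, although its difference was −0.58 to −1.20. Shares over all probes were not computed for the counts of same sign and of no call. Both counts are thus a description only. Snord118 was at 10.96, 11.03 and 10.85 in oil oocytes and 12.85, 11.31 and 11.39 in oil prospermatogonia, so that 1 male array lay far above the other 2.

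The genes for the proteins of the snoRNP particles went both ways. In oil, Nop58 was 1.95 ± 0.13 (SE; adjusted p = 2.79e-12) and Nop56 0.50 ± 0.10 (SE; adjusted p = 0.00012) log2 units higher in oocytes, the 4 Snu13 probes were 0.69 to 0.75 higher, and the 2 probes of Fbl, the methyltransferase, were 0.38 and 0.41 lower. In the H/ACA particle Dkc1, the X-linked pseudouridine synthase, was higher by 2.49 ± 0.17 (SE; adjusted p = 1.67e-12), Gar1 was higher by 0.32 and Nhp2 lower by 0.34, while Nop10 (0.23) missed the test. Of 13 assembly and Cajal body genes, 7 were called higher and 3 lower. Among other short RNAs the Y RNA Rny1 (−2.63), U3 as Rnu3a (−1.55), Rmrp (−0.52) and the RNase P RNA Rpph1 (−0.47) were the 4 of 12 probes called, all lower, with a median of −0.11 over the 12. Of 305 miRNA precursor probes 60 were called higher and 39 lower. Of the 7 probes of 4 noncoding host genes 2 were called higher and 3 lower, and the Gas5 probes went both ways. Meg3 and Rian, long noncoding RNAs of the imprinted locus that hosts box C/D clusters, were lower in oocytes by 1.68 and 1.86. The box C/D RNAs of that locus and of the Snord115 and Snord116 clusters have no single-gene probe among the members and were not analysed here.

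**Figure D3:**
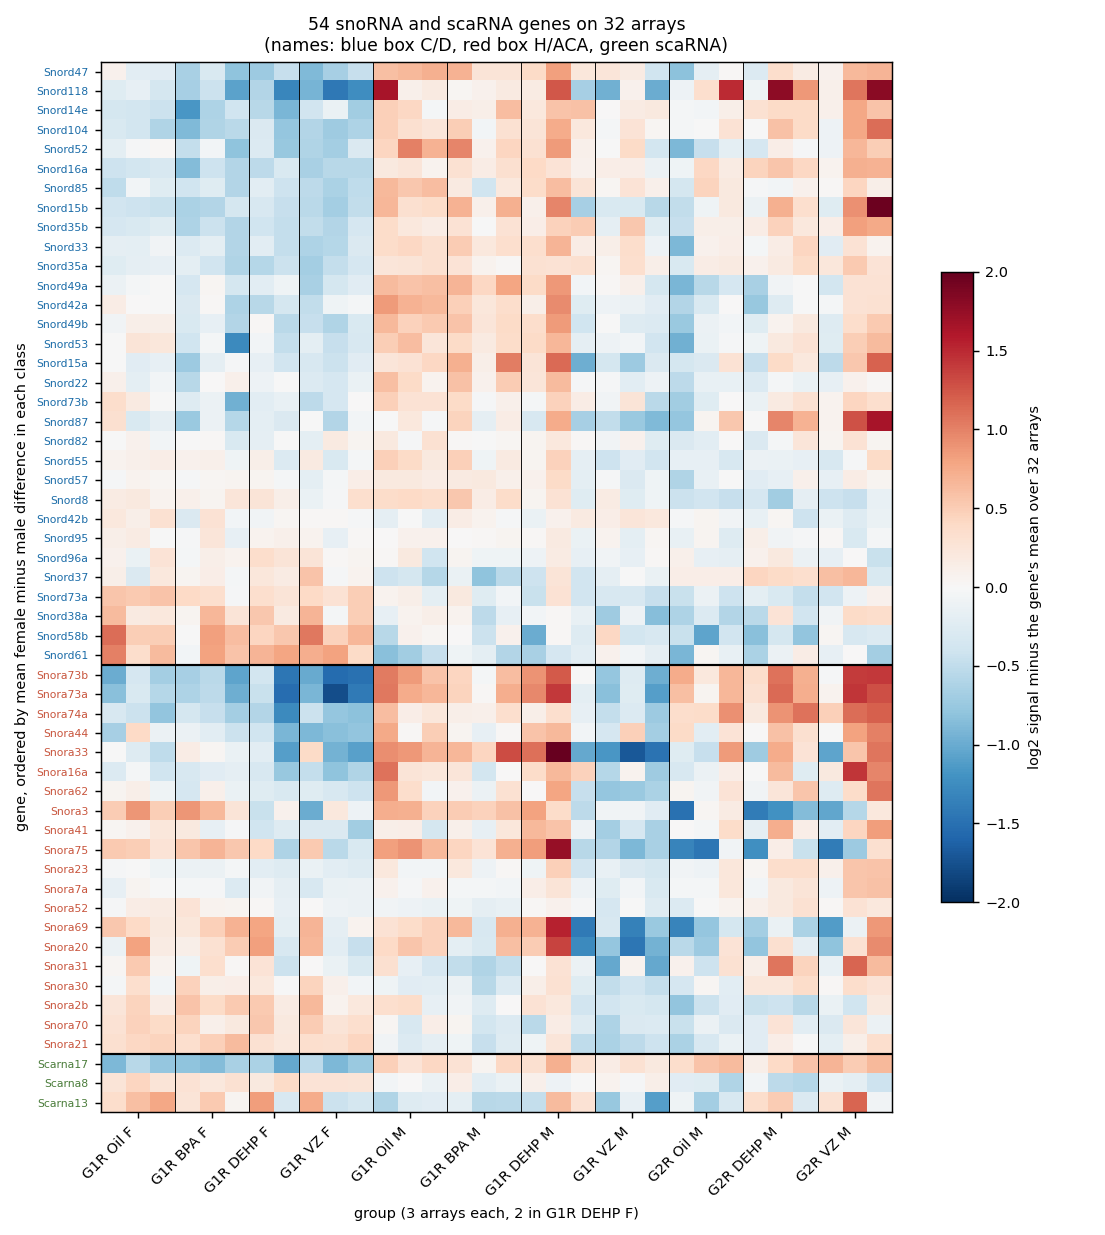
Log2 signal of each gene (rows) on each array (columns) minus that gene's mean over the 32 arrays, on a colour scale of −2 to 2 that clips larger values; horizontal lines separate the classes and vertical lines the 11 groups. In oil oocytes blue box C/D rows are only narrowly the majority (16, 17 and 18 of 31 genes below their mean). They are more clearly so in the ED oocyte arrays, except BPA replicate 2 (16 of 31). Within males the columns of G1R VZ are blue for most box H/ACA rows.

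The question of a direct response to the EDs was asked in G1R oocytes and prospermatogonia, and that of a persistent change in G2R prospermatogonia. No member was called in any of these 8 comparisons (limma). The share of all probes called was 0.0% for BPA, DEHP and VZ in oocytes, 0.0% for BPA in G1R males, 0.00562% (2 probes) each for DEHP and for VZ in G1R males, and 0.0% for DEHP and for VZ in G2R males. At an unadjusted p under 0.05 the members counted 3 of 54 for BPA, 1 for DEHP and 8 for VZ in oocytes, 2 for BPA, 2 for DEHP and 33 for VZ in G1R males, and 4 for DEHP and 23 for VZ in G2R males. The shares of all probes at that threshold were 4.56%, 6.28% and 5.96% in oocytes, 6.96%, 14.4% and 18.3% in G1R males, and 6.91% and 5.41% in G2R males in the same order of EDs. The G1R oil male arrays also enter the comparison on which the class was chosen. They are its higher group, and G2R oil males are its lower group. Lower member values against G1R oil males, and higher ones against G2R oil males, can follow from that choice.

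The VZ comparison in G1R prospermatogonia had the lowest class medians of the 8. The median difference (VZ minus oil, log2) was −0.42 for box C/D, −0.68 for box H/ACA, −0.17 for the scaRNAs and −0.01 over all probes. All 20 box H/ACA genes had a value below 0, and in 15 of them every VZ array was below every oil array. Among box C/D genes 27 of 31 were below 0 and 17 had all VZ arrays below all oil arrays, while 14.8% of all probes did. At an unadjusted p under 0.05, 17 box C/D and 14 box H/ACA genes were lower, against 9.97% of all probes, and 2 box C/D genes were higher. The oil group here is the higher one where the class was chosen, so all probes are no like background for these counts. The smallest adjusted p was 0.0802, for Snora73a, Snora73b and Snord55. The call depends on the setting: 3 members passed in a fit of only these arrays (0.0337% of all probes), 6 when p-values were adjusted over single-gene probes (0.509% of those), and 14 with array quality weights (5.07% of all probes).

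Snora33, in an intron of Rps12, had the largest difference. Its signal was 10.32, 10.26 and 10.08 in oil males and 8.23, 7.70 and 7.91 in VZ males, a difference of −2.28. The 3 VZ arrays were the lowest of all 32, and the next were single arrays of G1R DEHP oocytes (8.30), G1R VZ oocytes (8.31), G2R VZ males (8.33) and G1R DEHP males (8.37). Snora73a was at 11.41, 11.11 and 11.03 in oil and 9.52, 10.12 and 9.26 in VZ (−1.55 ± 0.37, SE), and Snora73b differed by −1.48 ± 0.35 (SE), and neither passed the test. Snora75, in Ncl, had signals of 9.80, 9.88 and 9.64 in oil and 8.40, 8.08 and 8.34 in VZ. Snora20, Snora69 and Snora62 had differences of −1.53, −1.18 and −1.10. At the other end Snora52 differed by −0.10 with overlapping arrays.

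In the box C/D class Snord118 had the lowest value, −1.27, but its VZ arrays (10.24, 11.29 and 10.21) and oil arrays (12.85, 11.31 and 11.39) were spread widely. Snord42a was tighter, at 10.88, 10.72 and 10.68 in oil and 9.92, 9.90 and 9.79 in VZ (−0.89 ± 0.22, SE; adjusted p = 0.0816), and Snord55 differed by −0.69 ± 0.16 (SE) and Snord49a by −0.68 ± 0.21 (SE). Snord61 (0.62), Snord37 (0.34) and Snord42b (0.33) were the members that lay above oil on all 3 VZ arrays. Of the RNAs in the study's list for VZ, 6 are members, and that list was chosen on these arrays, so their values are a description: Snord47 −0.66, Snord49a −0.68, Snord52 −0.71, Snord53 −0.63, Snora16a −0.93 and Snora21 −0.35. Snora28, also in that list, shares its probe with Eif5.

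Within a class the VZ difference was also set beside RNA length and signal, with no test. The 16 box C/D genes of up to 68 nt had a median of −0.41 and the 15 longer ones −0.42, and the 10 box H/ACA genes of up to 125 nt had −0.68 and the longer 10 −0.58. Split at the class median of signal, the weaker and stronger box C/D genes had medians of −0.39 and −0.46, and the box H/ACA genes −0.57 and −0.84. Values beside this result were as follows. All 12 probes of other short structured RNAs were below oil too, with a median of −0.26 and Rnu3a lowest at −2.02, and miRNA precursors had a median of −0.15. Neither core protein list had a called member (medians 0.05 and 0.05), the Sertoli marker signal was 9.45 to 9.82 in oil and 9.76 to 10.11 in VZ males, and the Leydig marker signal 9.15 to 9.99 and 9.08 to 10.10. Their part in the result was not tested.

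VZ in G1R oocytes had medians of −0.20 for box C/D, −0.29 for box H/ACA and −0.06 for the scaRNAs, with 4 box C/D and 4 box H/ACA genes lower at an unadjusted p under 0.05 against 3.19% of all probes. The smallest p there belonged to Snora3 (−0.93 ± 0.36, SE) and Snord47 (−0.55 ± 0.22, SE), with adjusted p of 0.769 and 0.77. In G2R males VZ had medians above 0, at 0.42 for box C/D, 0.39 for box H/ACA and 0.11 for the scaRNAs. At an unadjusted p under 0.05, 16 box C/D, 6 box H/ACA and 1 scaRNA gene were higher, against 2.83% of all probes. The oil group of G2R is the lower one where the class was chosen, so all probes are no like background for these counts. Over all members, whatever their p, every VZ array lay above every oil array in 8 box C/D, 1 box H/ACA and 1 scaRNA gene, against 4.69% of all probes, and below in 1 box C/D gene, Snord42b. The smallest adjusted p was 0.913. The list RNAs were Snord47 at 0.79, Snord49a 0.67, Snord52 0.87, Snord53 0.67, Snora16a 0.97 and Snora21 0.45.

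**Figure D4:**
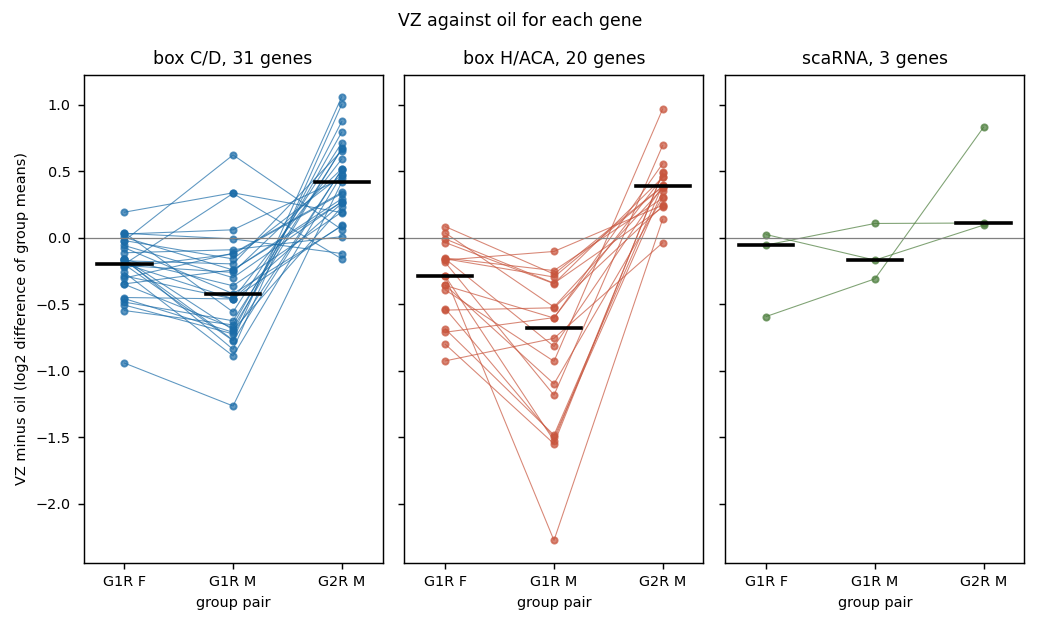
VZ minus oil log2 difference of group means (y axis) for each gene in G1R oocytes, G1R prospermatogonia and G2R prospermatogonia (x axis), in a panel for each class; thin lines join a gene's values and thick bars are class medians. Box H/ACA values are all below 0 in G1R males (median −0.68) and mostly above 0 in G2R males (median 0.39). The G1R and G2R males have different oil controls, and the class was chosen by the difference between those controls.

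DEHP had small medians in G1R oocytes (−0.15 for box C/D and −0.27 for box H/ACA) and males (−0.14 and −0.10). Without replicate 3 of the G1R DEHP males, the male medians turned to 0.05 and 0.20. In G2R males they were 0.24 and 0.21, with 1 box C/D and 3 box H/ACA genes higher at an unadjusted p under 0.05 against 3.66% of all probes, and Snora30 had the smallest p (0.44 ± 0.15, SE; adjusted p = 0.642). The oil group of that G2R comparison is again the lower one where the class was chosen. BPA had medians of −0.22 and −0.02 in oocytes and −0.03 and −0.14 in males. Its smallest p in males was for Snord85 (−0.60 ± 0.17, SE; adjusted p = 0.325) and in oocytes for Snord73b (−0.61 ± 0.21, SE; adjusted p = 0.865).

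G2R was set against G1R in the DEHP and VZ prospermatogonia, which the choice of the class did not use. In VZ males 12 of 20 box H/ACA genes, 4 of 31 box C/D genes and 1 of 3 scaRNA genes were called higher in G2R, against 2.98% of all probes, and 1 box C/D gene was called lower, against 4.78%. The medians (G2R minus G1R, log2) were 0.73, 0.35 and 0.39. Snora74a of Snhg4 had the smallest adjusted p, with signals of 8.35, 8.54 and 8.10 in G1R and 9.29, 9.94 and 10.02 in G2R (1.42 ± 0.23, SE; adjusted p = 0.00052). Snora73a was at 9.52, 10.12 and 9.26 in G1R and 10.44, 11.80 and 11.66 in G2R (1.66 ± 0.37, SE; adjusted p = 0.0069), and Snora73b differed by 1.60. Replicate 1 of G2R was nearer to the G1R arrays than replicates 2 and 3 were.

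Other box H/ACA genes called higher in G2R VZ males were Snora16a (1.27), Snora31 (1.21), Snora62 (1.11), Snora41 (0.91), Snora23 and Snora30 (0.67 each), Snora21 (0.61), Snora7a (0.55) and Snora52 (0.37), of which Snora31 and Snora7a had overlapping arrays. Snora16a and Snora21 are in the study's VZ list, which was chosen on arrays that include these. Their values and their place in the count of calls are thus a description. In the box C/D class Snord87 was at 8.15, 7.89 and 7.76 in G1R and 8.71, 9.92 and 10.29 in G2R (1.71 ± 0.36, SE; adjusted p = 0.005), and Snord118, the U8 RNA, differed by 1.61, Snord15b by 1.27 and the dim Snord38a by 0.77. Snord42b fell by 0.37, and Scarna13 was higher by 1.14. The short RNAs Rnu12 of the minor spliceosome (1.47), Rnu5g (1.36) and the vault RNA Vaultrc5 (1.47) were called higher beside them, and their part in the result was not tested. The 18 calls (7.77% of all probes were called in either direction) became 2 in a fit of only these arrays (1.12%). Without replicate 1 or 3 of the G1R VZ males 8 and 9 members were called (4.33% and 4.47% of all probes), and without replicate 2 or 3 of the G2R VZ males 7 and 8 (3.89% and 3.95%).

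In DEHP males 4 members were called, all lower in G2R: Snora3 in Rpl27a (12.46, 12.02 and 11.14 in G1R, 10.26, 10.44 and 10.78 in G2R, −1.38 ± 0.36, SE; adjusted p = 0.012), Snord49a (−0.64), Snord8 (−0.43) and Scarna8 (−0.37). The 4 are 7.41% of the 54 members, close to the 7.56% of all probes called lower, with 6.91% of all probes called higher. The medians were −0.15 for box C/D, 0.00 for box H/ACA and −0.09 for the scaRNAs. The arrays of Snora3 did not overlap, and those of the other 3 did. The Leydig marker signal was 9.20 to 10.33 in G1R and 9.82 to 12.26 in G2R DEHP males, and its part was not tested. No member was called in a fit of only these arrays (2.69% of all probes, against 14.5% in the full fit) or without replicate 1 of the G1R DEHP males (10.4%), 2 were called without replicate 1 of the G2R DEHP males (8.51%), and 8 without replicate 3 of the G1R DEHP males (10.7%).

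The oil comparison, on which the class was chosen, gave medians of −0.43 for box C/D, −0.28 for box H/ACA and 0.00 for the scaRNAs (G2R minus G1R, log2). All G2R arrays lay below all G1R arrays in 17 box C/D, 7 box H/ACA and 1 scaRNA gene, and above them in 1 box C/D gene, Snord37, while 18.3% and 14.3% of all probes did. The lowest box C/D values were Snord52 (−1.23), Snord49a (−1.21), Snord42a (−1.03), Snord47 (−0.98), Snord49b (−0.85) and Snord53 (−0.82). The lowest box H/ACA values were Snora75 (−1.74), Snora69 (−1.19), Snora3 (−1.06), Snora20 (−0.80), Snora33 (−0.78) and Snora2b (−0.66). Snora74a (0.22), Snora41 (0.15) and Snora31 (0.05) were the highest of that class, and their arrays overlapped.

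The generation by VZ term sets the G2R VZ difference against the G1R one. It contains, with the sign turned, the oil difference on which the class was chosen. Values above 0 in members can thus follow in part from that choice. Its p-values and counts are given as a description and are no test of VZ in the members. No member and 0.0% of all probes were called, while 24 box C/D, 19 box H/ACA and 1 scaRNA gene were higher at an unadjusted p under 0.05, against 8.58% of all probes. The medians were 0.72, 1.11 and 0.26. The smallest adjusted p was 0.0984, for Snora16a (1.90 ± 0.38, SE), Snord47 (1.45 ± 0.31, SE) and Snord49a (1.35 ± 0.30, SE). Without replicate 1 of the G2R VZ males, 18 members and 0.562% of all probes were called, and without replicate 2 of the G1R oil males, 1 member and 0.0787%. The generation by DEHP term contains the same oil difference. It called no member and 0.0% of all probes (limma). The smallest p among members there belonged to Snord42b (−0.34 ± 0.16, SE; adjusted p = 0.361).

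For 30 members the host gene has a single-gene probe of its own, with 26 hosts in all, ribosomal protein genes among them. A host is any gene whose span holds the member, whatever its strand. Snord87 is thus set beside Mcmdc2, while Snhg6, which also spans it, is not among the 26. A host with several probes is given by the one with the highest mean signal. Host probes were taken by their annotated gene, and whether each lies at the host's own locus was not checked. In VZ against oil in G1R males the members' median was −0.44 and that of their hosts 0.01, with hosts between −0.18 and 0.33, and 27 of 30 members were below their host. For Snora33 the host Rps12 differed by 0.01 (−0.17 to 0.01 over its 14 probes), for Snora62 the host Rpsa by −0.10 (−0.24 to −0.10 over 5 probes) and for Snora20 the host Tcp1, with 1 probe, by 0.12. Over all 78 probes of the 26 hosts the range was −0.24 to 0.71. In VZ against oil in G2R males the medians were 0.34 for members and 0.02 for hosts, and in G2R against G1R VZ males 0.41 and 0.14. The oil groups in both VZ against oil comparisons are those on which the snoRNA class was chosen. In the sex comparison in oil they were −0.13 and 0.04, and hosts ranged from −0.99 to 2.09. Some pairs went together there, such as Snord16a (−0.53) and Rpl4 (−0.65), and others did not, such as Snora23 (−0.07) and Ipo7 (2.00).

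RNAs cut from 1 host transcript also differed from each other. Ncl, which encodes nucleolin, carries Snord82 and Snora75. In G1R males Snord82 was at 12.79, 12.57 and 12.89 in oil and 12.52, 12.67 and 12.34 in VZ with overlapping arrays (−0.24), while Snora75 differed by −1.50 and Ncl by 0.08. Rpl23a carries Snord42a and Snord42b. Snord42a differed by −0.89, and Snord42b, at 8.53, 8.70 and 8.49 in oil and 8.85, 8.95 and 8.92 in VZ, by 0.33, with Rpl23a at −0.10 (−0.16 to −0.03 over its 13 probes). Other hosts had members with like values: Snord49a and Snord49b of 2410006H16Rik (−0.68 and −0.72), Snord15a and Snord15b of Rps3 (−0.77 and −0.84), Snora73a and Snora73b of Snhg3, and Snora16a and Snora44 of Snhg12 (−0.93 and −0.60). Of the hosts shown with the longest pyrimidine runs at their start, Rack1 carries Snord95 (−0.09) and Snord96a (−0.01), and 2410006H16Rik and Snhg12 carry the lower ones just given.

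**Figure D5:**
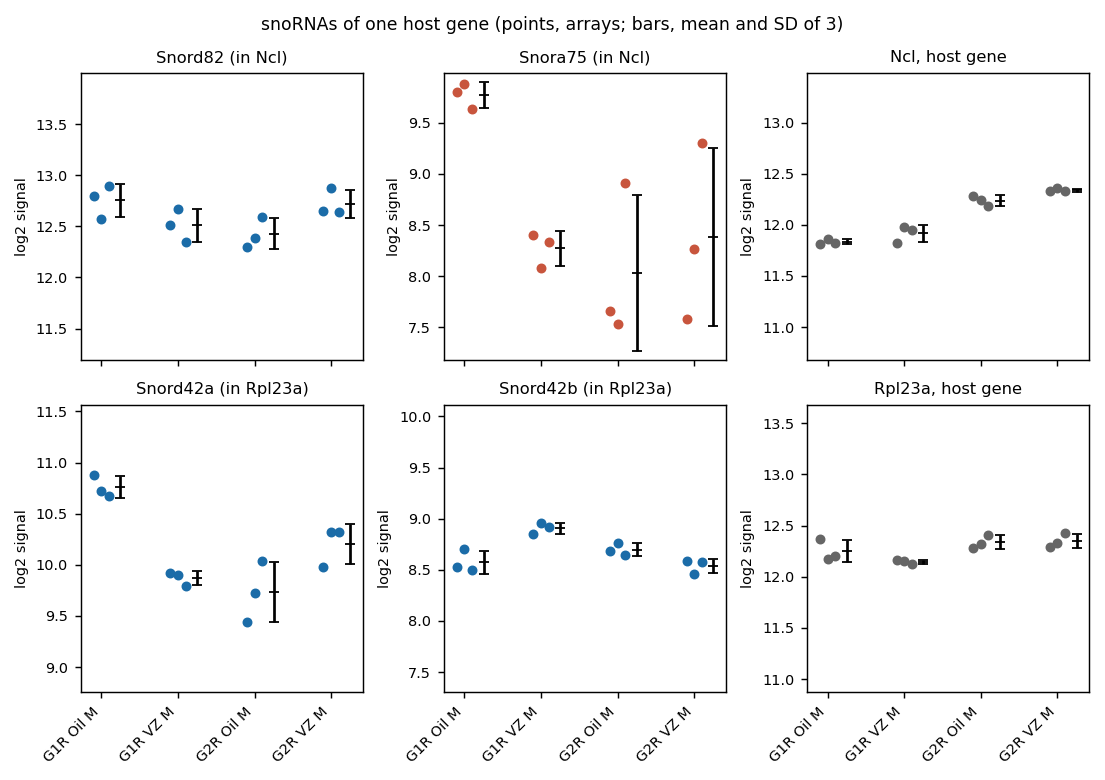
Log2 signal (y axis) in 4 groups of prospermatogonia (x axis) for snoRNAs that share a host gene and for the host itself; points are arrays, bars the mean and SD of 3, and every panel spans the same number of log2 units. Snora75 and Snord42a are lower in G1R VZ than in G1R oil males, Snord82 overlaps, Snord42b is higher, and the hosts Ncl and Rpl23a differ by 0.08 and −0.10.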

How the data were processed

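RNA of sorted germ cells was hybridized to Mouse Gene 1.0 ST arrays, and the deposited values are log2 signals that the authors normalized with robust multichip averaging (RMA) in Partek Genomics Suite, whose version is not given in the sources used here. RMA pulls all arrays to 1 distribution, so a shift shared by most RNAs would not show. Groups came from sample titles. The fit used limma 3.58.1 (R 4.3.3), with 1 mean for each of the 11 groups, all 32 arrays and all 35556 probes (21 residual and 3.67 prior degrees of freedom). Benjamini-Hochberg adjustment ran over the whole table, with calls at 0.05. Plots used Python 3.11.15 and matplotlib 3.10.9. The model was tested on simulated data.

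The members, gene lists and rule for naming genes were chosen with earlier results of these data known. Genes were named when among the 6 highest or 6 lowest non-overlapping differences of a class past the test, when of the 3 smallest p where fewer than 3 passed, or when on a fixed list (scaRNAs, rRNA processing RNAs, shared hosts, the study's VZ list, core proteins, other short RNAs). Alternatives were an unmoderated contrast, only the arrays compared, single-gene probes, dim probes left out (22281 kept), cyclic loess, array quality weights, a replicate block and leaving out each array. The number of arrays limits the precision.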

Additional observations from a re-analysis of the deposited data

How the results depend on the processing

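Counts of members called, out of 54, kept within 1.5 times of the reported count in the 16 comparisons under the unmoderated contrast, cyclic loess and the replicate block. A fit that calls more of all probes can also call more members. Shares of all probes are given above for some of these fits only. A changed count here is thus no result about the snoRNAs. Deviations of same-numbered replicates from their group means had correlations of −0.354 to 0.131 over all probes. With so few arrays in a group these values cannot tell whether such replicates shared a litter or a processing day. With the replicate block the counts were 24, 29, 22 and 17 for sex in oil, BPA, DEHP and VZ, 4 for G2R against G1R in DEHP males and 18 in VZ males, and 0 elsewhere. VZ against oil in G1R males went from 0 to 6 with single-gene probes, 14 with array quality weights and 3 with only the arrays compared. G2R against G1R in DEHP males went from 4 to 8 with dim probes left out, 9 with single-gene probes and 0 with only the arrays compared, and from 0 to 8 over single arrays left out. In VZ males it went from 18 to 2 with only the arrays compared and from 7 to 23 over single arrays left out. Sex in DEHP (21) ran from 10 to 29 and the generation by VZ term (0) from 0 to 18 over single arrays left out. The box C/D class median in G1R oil oocytes moved from −0.02 to −0.059 under cyclic loess and −0.0621 with dim probes left out, and that in G1R VZ oocytes from −0.27 to −0.39 with dim probes left out. The cause was not tested, except that fewer arrays or probes entered some of these fits.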
